A study of Mus musculus with 21 samples.

Results

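The genes described here encode the subunits of voltage-gated calcium and sodium channels in the neocortex of rNLS8 mice. They were chosen by name alone, as all rows whose symbol begins with Cacna, Cacnb, Cacng or Scn and goes on as the calcium channel and sodium channel subunit symbols do. Rows marked as a further copy of a symbol were left out. This gave 40 genes among 45921 rows without a copy suffix (48474 rows in all), in 6 families. Of the 40 genes, 35 had enough counts to be tested.

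Voltage-gated calcium and sodium channels are built around a large pore-forming alpha subunit, which opens when the membrane is depolarized. Calcium channels also carry an extracellular alpha2delta subunit and a cytoplasmic beta subunit, which bring the pore to the membrane and set its gating, and sodium channels carry single-pass beta subunits. Most gamma subunits of the brain serve instead as transmembrane AMPA receptor regulatory proteins (TARPs), which escort glutamate receptors to the synapse.

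The rNLS8 mice carry a tetO-hTDP-43ΔNLS transgene, which encodes human TDP-43 without a nuclear localization signal, and a NEFH-tTA driver. The NEFH promoter limits the transgene to neurons, apart from a few oligodendrocytes. Controls, labelled WT and called wild-type here, were littermates with a single one of these transgenes, and both lines had been backcrossed to C57BL/6J. All 21 mice had received the same treatment, a non-targeting antisense oligonucleotide (350 µg in 10 µL into a cerebral ventricle at 17 to 19 weeks of age). Doxycycline in the diet at 200 mg/kg kept the transgene off until 2 weeks later, and neocortex was taken after 3 weeks of expression. There were 11 wild-type mice (4 in cohort A, 7 in cohort B) and 10 rNLS8 mice (3 in cohort A, 7 in cohort B). The series' design names A and B as cohorts and the sample labels give them as batches, and the sex of the mice is not labelled.

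Total counts on genes were between 20700912 and 21993072 per wild-type mouse and between 20786303 and 22263809 per rNLS8 mouse. Tardbp, whose row can also take reads from the human transgene, was at 2574 normalized counts on average in wild-type and at 4109 in rNLS8 mice, and 9 of 10 rNLS8 mice were over the wild-type range of 2253 to 2827. The library labelled rNLS8 and named T61340, of cohort A, was at 2363, under the wild-type median of 2650, so that this readout went against its label. It was kept in its labelled group. The log2 fold change of Tardbp was 0.79 in cohort B (adjusted p = 1.42e-10) and 0.26 in cohort A, where it did not pass (adjusted p = 0.191). All 7 markers of neocortical neurons were detected (summed level 422 to 558 CPM over all mice), 4 markers of the dentate gyrus summed to 13.3 to 43.4 CPM, and markers of the adjoining striatum differed widely between mice (summed level 214 to 1161 CPM, counts scaled to a common library size, in wild-type and 188 to 916 in rNLS8 mice). Of 11 general neuron markers, 8 were lower in rNLS8 mice and none was higher, and their summed level was between 7102 and 8736 CPM in wild-type and between 5287 and 6552 in rNLS8 mice, without overlap. Of the glial lists, microglia markers were mostly higher (7 of 9, with 1 lower, 418 to 489 CPM in wild-type and 452 to 718 in rNLS8 mice), astrocyte markers were mostly lower (5 of 6, with 1 higher), and none of 6 oligodendrocyte markers differed. The part of these lists in the results for the channels was not tested. In bulk tissue, fewer neurons and less RNA per neuron cannot be told apart. T61340 stood apart in a further way. The Spearman correlation across genes between its deviation from its group and exon length was -0.52, against -0.19 to 0.34 in the other 20 mice, so that its long transcripts were low and its short ones high, and results in which it is the lowest or highest mouse are mostly given without it as well.

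Most of the tested subunits fell in rNLS8 mice. Of the 35 tested genes, 25 differed from wild-type at an adjusted p-value under 0.05 (edgeR's quasi-likelihood test), which was 71.4% against 44.7% of all 18248 genes tested. Of these, 21 were lower (60% of the tested subunits, against 21.7% of all genes) and 4 were higher (11.4%, against 23% of all genes). The median log2 fold change was -0.21 for the subunits and 0.00 for all genes. With scaling by library size alone, which moved the median of all genes to 0.08, 15 subunits were lower and 8 were higher. Without the library labelled rNLS8 whose Tardbp was in the wild-type range (T61340), 19 were lower and 4 were higher. Cacnb1, Cacng2 and Cacng7 were among those that rose, each from a family in which other members fell. Changes were moderate, since of the called subunits only Cacng6 and Scn4b had a log2 fold change beyond 1 in size.

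The 25 calls had the same direction in each cohort alone. They were made on both cohorts together, so that this is no independent check. In cohort A, with 4 and 3 mice, 7 of 35 subunits passed the threshold (20%, against 11.8% of all genes), and in cohort B 22 did (62.9%, against 39.1%). No subunit differed in its response between the cohorts in edgeR's interaction test (0 of 35, and 0% of all genes), although 3 subunits, Cacna1a, Cacna1s and Scn4b, had an unadjusted p under 0.05, as did 1030 genes in all. DESeq2 found 0 subunits and 1 gene in the same test.

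**Figure D1:**
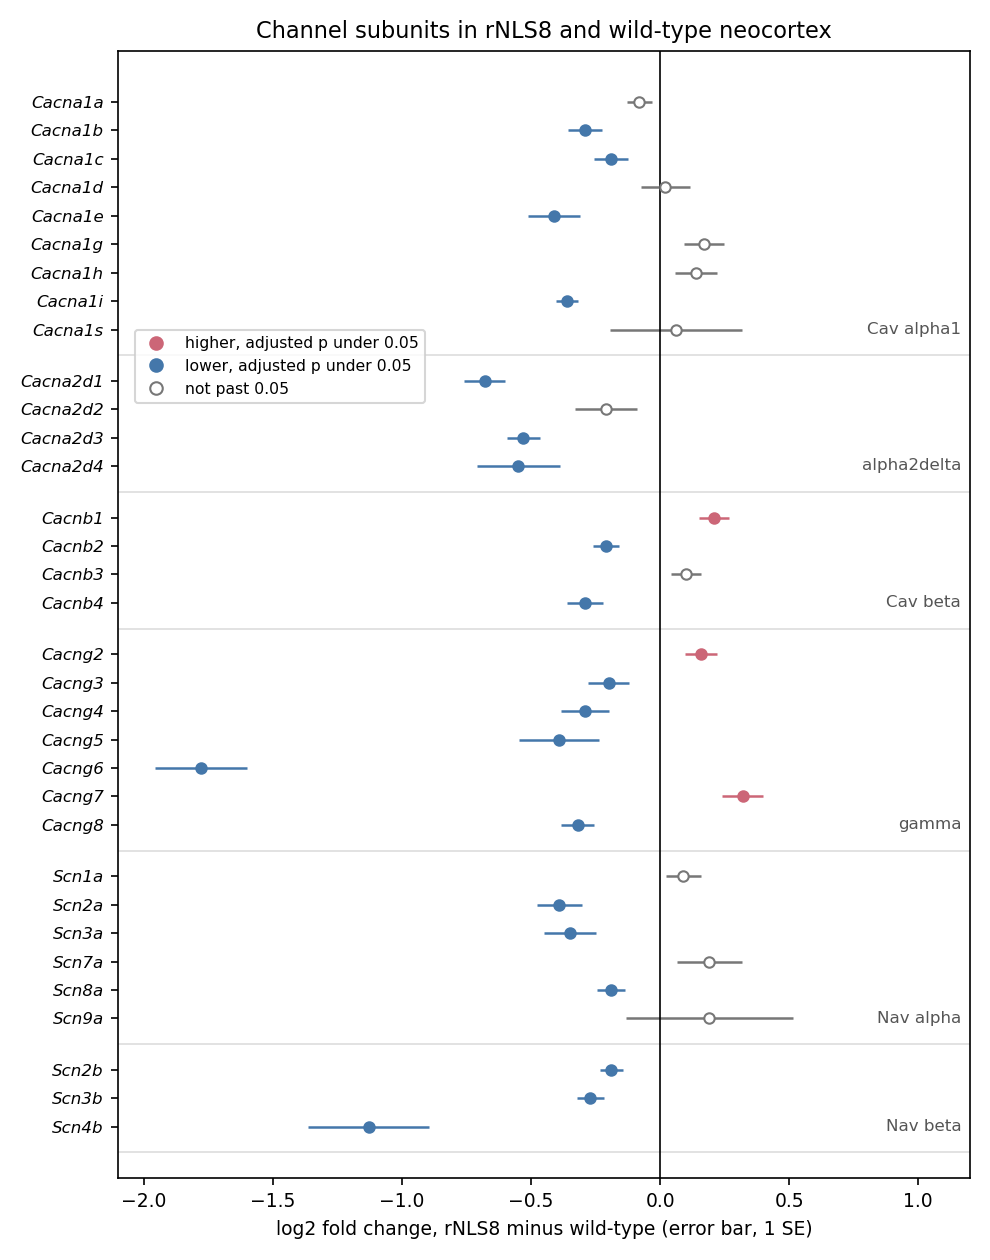
Log2 fold change between rNLS8 and wild-type mice for tested subunits, grouped by family, from all 21 mice with cohort in the model. Points are estimates and bars 1 standard error. Filled points passed an adjusted p of 0.05, and Cacng6 at -1.78 and Scn4b at -1.13 lie farthest from 0.

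**Figure D2:**
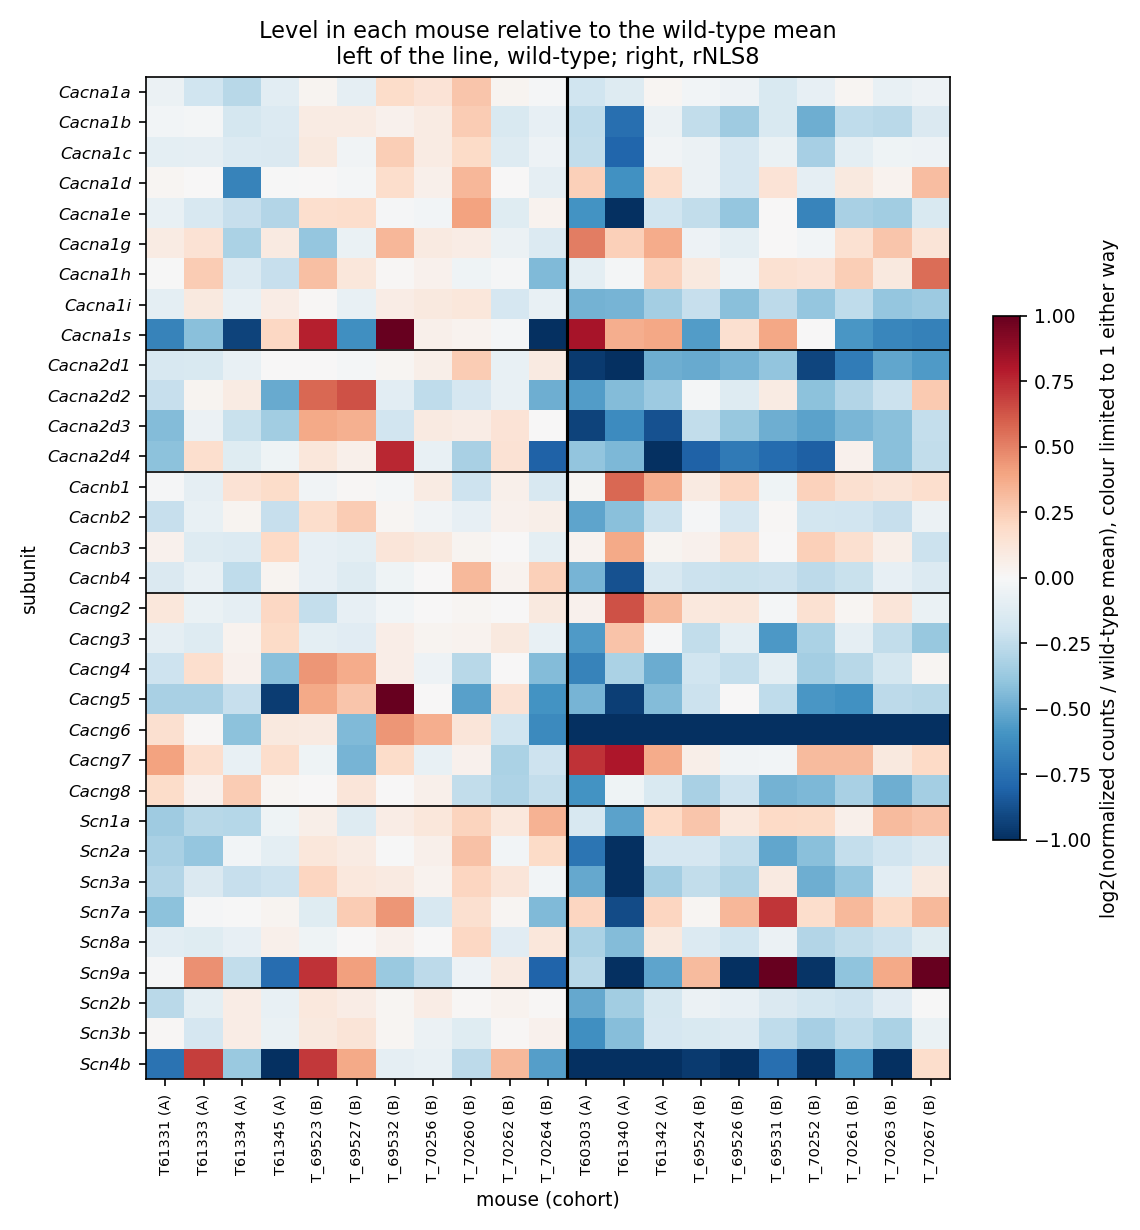
Level of tested subunits (rows, by family) in each mouse (columns, wild-type to the left of the line and rNLS8 to the right, with the cohort in brackets), as log2 of its normalized counts over the wild-type mean. Colour is limited to a change of 1 either way. Cacna2d1 and Cacng6 are low in all 10 rNLS8 mice, and T61340 is the lowest of the libraries labelled rNLS8 in 13 rows.

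Since TDP-43 is known to bind RNA at runs of alternating U and G, the spliced transcripts of the subunits were searched for such runs, on the transcribed strand, written with T for U. A run of at least 12 bases was found in 6 of the 35 tested subunits (17.1%) and in 1235 of 14167 tested genes with a protein-coding GENCODE M21 transcript (8.72%). Introns were not searched. The sites below are shown because each is the longest run in the spliced transcripts of its gene, and in each the run is in capitals within a window of 30 bases.
Cacna1b: TGTGTGTGTGTGTGTGTGTGTGTGTGTGTG
Cacna1c: gtgtgtaTGTGTGTGTGTGTGTccatgaca
Scn3a: tgtaccacaGTGTGTGTGTGTcctgagcaa
Scn8a: acatgtaTGTGTGTGTGTGTGTGaagaatg
Scn3b: gtgcaagcaTGTGTGTGTGTGcgcgcacat
Scn1a: tggtgcaTGTGTGTGTGTGTGTGcgtgtgt
The run of Cacna1b, at chr2:24604994-24605038 of GRCm38 (minus strand), was the longest with 45 bases, of which 30 are printed, and lies in the 3' UTR. Those of Cacna1c (15 bases, chr6:118590551-118590565, minus strand), Scn3a (12 bases, chr2:65459482-65459493, minus strand), Scn8a (16 bases, chr15:101045288-101045303, plus strand) and Scn3b (12 bases, chr9:40291517-40291528, plus strand) also lie in the 3' UTR. These 5 subunits were lower in rNLS8 mice, as were 60% of all tested subunits. Among all tested genes, 25.6% of the 1235 with such a run were lower, against 22.9% of the 14167. The run of Scn1a (16 bases, chr2:66410027-66410042, minus strand) lies in the 5' UTR instead, and Scn1a did not pass the test. A match is a description of the sequence, and binding was not measured.

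Most alpha2delta subunits, of which Cacna2d1 and Cacna2d2 are the targets of gabapentin, fell. All 4 were tested, 3 were lower, none was higher, and the median log2 fold change was -0.54. Cacna2d1 (chromosome 5 of GRCm38, 15934264 to 16374511) had 3562, 3983 and 4751 normalized counts in the lowest, median and highest wild-type mouse and 1558, 2735 and 3028 in rNLS8 mice. The groups did not overlap. Among all genes tested, 3.8% had all rNLS8 mice below all wild-type mice, and 3 of the 35 subunits did (8.57%). For Cacna2d1 the log2 fold change was -0.68 (SE 0.0782, adjusted p = 1.49e-07, edgeR), a level lower by 1.6-fold, with -0.77 in cohort A and -0.63 in cohort B. Without T61340, the lowest mouse, it was -0.62 (adjusted p = 3.49e-08).

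Cacna2d3 (chromosome 14, 28904943 to 29722775), the subunit with the highest level per kilobase of exon in its family (485 ± 88.5 normalized counts per kb in wild-type mice, SD, n = 11, close to 474 ± 39.8 for Cacna2d1), ranged over 1413, 1911 and 2479 normalized counts in wild-type and over 1004, 1376 and 1619 in rNLS8 mice. The groups overlapped, with 6 of 10 rNLS8 mice under the wild-type range and all 10 under the wild-type median. On the log2 scale the change was -0.53 (SE 0.0652, adjusted p = 4.28e-07) and nearly equal in the cohorts (-0.52 and -0.53). Cacna2d4 (chromosome 6, 119236524 to 119352407), known from photoreceptors, was scarce, at 29.8, 50.6 and 88.1 normalized counts in wild-type and 21.4, 35.2 and 53.7 in rNLS8 mice. It fell by 0.55 on the log2 scale (SE 0.161, adjusted p = 0.00709), with 3 of 10 rNLS8 mice under the wild-type range. Cacna2d2, prominent in cerebellar neurons and interneurons, had a log2 fold change of -0.21 (95% interval -0.46 to 0.04, adjusted p = 0.167), and without the wild-type mouse T_69527 one of -0.13 (adjusted p = 0.372).

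The promoters of the pair with the most counts are shown because these genes fell together. They run from 250 bases before to 50 after the start given in the RefSeq promoter table (GRCm38.p6), which for both lies inside the outermost bounds of the gene printed above, so that other starts exist upstream, at chr5:15934441-15934740 on the plus strand for Cacna2d1 and chr14:29721815-29722114 on the minus strand for Cacna2d3, with the letters GGGCGG, known as a GC box, in capitals on either strand.
Cacna2d1: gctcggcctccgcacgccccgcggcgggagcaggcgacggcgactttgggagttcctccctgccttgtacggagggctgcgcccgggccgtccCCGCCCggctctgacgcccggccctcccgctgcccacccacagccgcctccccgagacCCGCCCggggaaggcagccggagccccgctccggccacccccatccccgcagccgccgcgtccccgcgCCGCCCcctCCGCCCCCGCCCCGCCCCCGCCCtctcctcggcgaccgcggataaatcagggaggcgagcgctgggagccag
Cacna2d3: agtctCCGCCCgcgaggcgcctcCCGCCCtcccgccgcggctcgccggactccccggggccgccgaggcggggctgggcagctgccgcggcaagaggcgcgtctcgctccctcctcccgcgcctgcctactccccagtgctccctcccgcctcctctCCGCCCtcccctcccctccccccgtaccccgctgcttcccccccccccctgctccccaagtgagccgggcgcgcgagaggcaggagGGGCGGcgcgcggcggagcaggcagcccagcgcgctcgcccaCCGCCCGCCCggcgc
Each was rich in G and C (80% and 81.3%) and held the 6 letters 7 and 6 times, counting overlaps. The motif was present in 13 of the 30 subunit promoters found in the RefSeq table (43.3%) and in 35.9% of 27025 promoters of the same length. TATAAA was in 3.33% and 14.2%, and TGACGTCA, the full cyclic AMP response element, in 0% and 1.88%. The Scn4b and Scn8a promoters, whose genes also fell, held none of these letters.

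Among the pore-forming calcium channel subunits, 9 of 10 genes were tested, of which 4 were lower and none was higher, with a median log2 fold change of -0.08. The falls were in Cacna1b (N-type), Cacna1c (L-type), Cacna1e (R-type) and Cacna1i (T-type), which belong to 4 functional classes. Cacna1i (chromosome 15, 80287238 to 80398292), a low-voltage-activated channel of thalamic and cortical neurons, had 2437, 2760 and 2959 normalized counts in wild-type and 1972, 2110 and 2335 in rNLS8 mice, without overlap. Its log2 fold change of -0.36 (SE 0.0435, adjusted p = 3.41e-07) was -0.40 in cohort A and -0.33 in cohort B. The other T-type genes did not pass the test. Cacna1g had a log2 fold change of 0.17 (95% interval 0.00 to 0.33, adjusted p = 0.0841) and Cacna1h one of 0.14 (-0.03 to 0.31, adjusted p = 0.158). Both passed the threshold as higher when counts were scaled by library size alone (0.24, adjusted p = 0.0147, and 0.22, adjusted p = 0.0315), and Cacna1h with the striatal markers as a covariate as well (0.24, adjusted p = 0.00206). Cacna1g also passed it in 1 of 21 fits with a mouse left out, that without the wild-type mouse T_69532 (0.21, adjusted p = 0.0159), and was at 0.13 without T60303 (adjusted p = 0.184), 0.39 in cohort A and 0.06 in cohort B. Cacna1h without T_70267 was at 0.09 (adjusted p = 0.325).

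Cacna1e (chromosome 1, 154390806 to 154884785), the R-type channel of dendrites and presynaptic endings, ranged over 3755, 4515 and 6106 normalized counts in wild-type and over 1745, 3655 and 4620 in rNLS8 mice. Here 6 of 10 rNLS8 mice lay under the wild-type range, the lowest being T61340. The estimated log2 change was -0.41 (SE 0.101, adjusted p = 0.00178) and -0.33 without that mouse (adjusted p = 0.00105). Cacna1b (chromosome 2, 24603860 to 24763200), the N-type channel that triggers transmitter release, had 1913, 2135 and 2579 normalized counts in wild-type and 1281, 1817 and 2083 in rNLS8 mice. All 10 rNLS8 mice were under the wild-type median, and 7 were under the wild-type range. This was a log2 fold change of -0.29 (SE 0.0658, adjusted p = 0.000831), or -0.25 without T61340 (adjusted p = 0.000914), with the 45-base run of alternating T and G in its 3' UTR shown above.

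Cacna1c, the main L-type channel of the brain, fell by 0.19 on the log2 scale (adjusted p = 0.0243), and by 0.13 without T61340 (adjusted p = 0.0337). The call was lost with scaling by library size alone (-0.11, adjusted p = 0.195) and without cohort in the model (adjusted p = 0.0691 in edgeR and 0.0618 in DESeq2). It was only just kept without the wild-type mouse T_69532 (-0.17, adjusted p = 0.0487) and without the rNLS8 mouse T_70252 (-0.16, adjusted p = 0.049). By contrast, the P/Q-type gene Cacna1a (chromosome 8, 84338631 to 84640251), which had the highest level per kilobase of exon in the family (393 ± 45.2 normalized counts per kb in wild-type mice), did not pass. It had 2570, 3088 and 3781 normalized counts in wild-type and 2708, 2983 and 3166 in rNLS8 mice, all within the wild-type range. That is a log2 fold change of -0.08 (SE 0.0486, 95% interval -0.18 to 0.03, adjusted p = 0.218), with 0.08 in cohort A, -0.15 in cohort B (adjusted p = 0.0234) and 0.00 with scaling by library size alone. Cacna1d, the other neuronal L-type gene, had a log2 fold change of 0.02 (-0.18 to 0.22, adjusted p = 0.879). Cacna1s, the channel of skeletal muscle, was at 9 to 44 counts per mouse and had a log2 fold change of 0.06 (-0.48 to 0.59, adjusted p = 0.881).

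**Figure D3:**
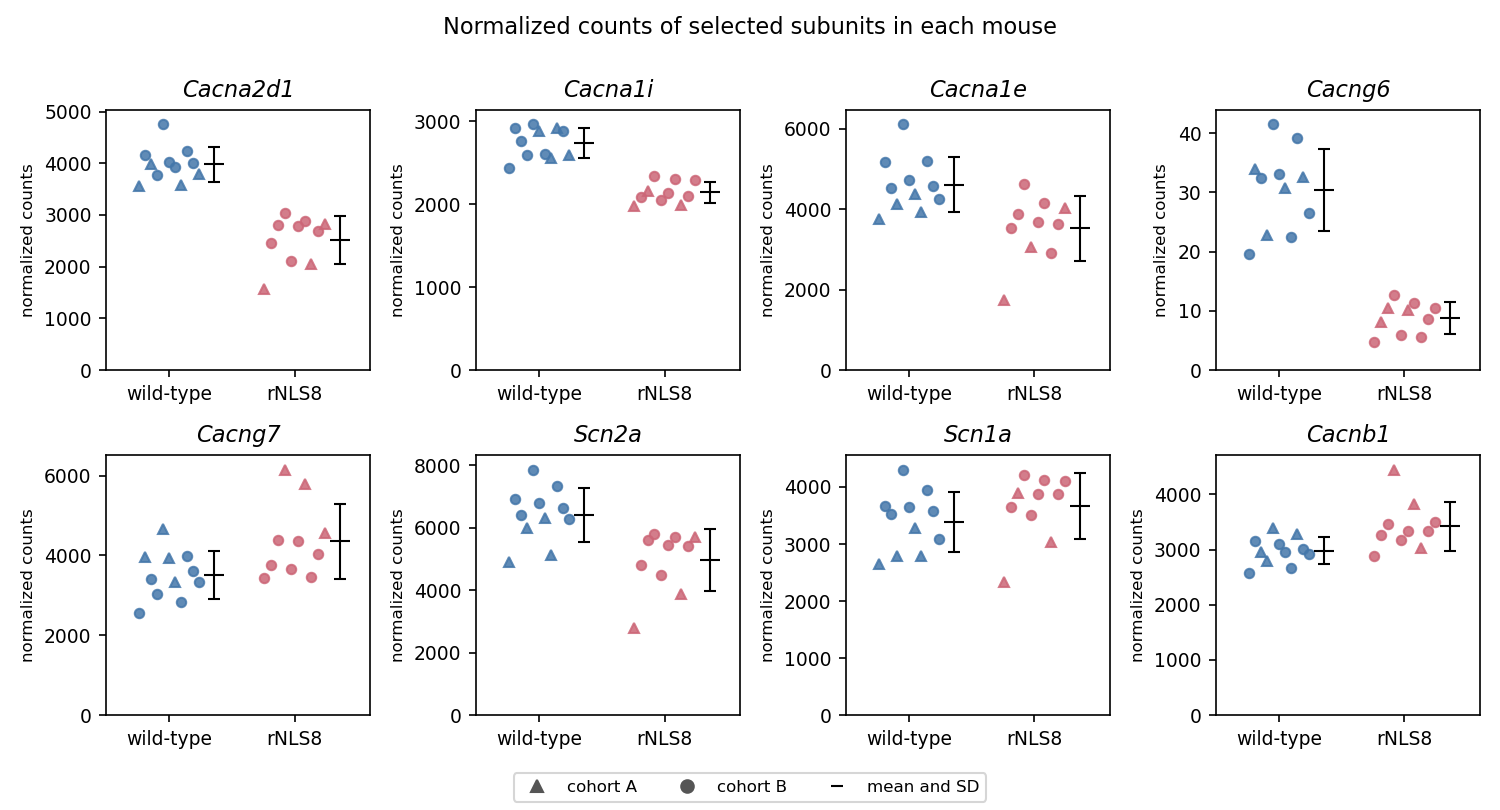
Normalized counts of 8 subunits in each mouse (triangles, cohort A; circles, cohort B), with the mean and SD of each group as a bar. Cacna2d1, Cacna1i and Cacng6 do not overlap between the groups, whereas Scn1a does, and the highest rNLS8 points of Cacng7 and Cacnb1 (6150 and 4449) are T61340.

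The beta subunits split. Of 4 tested, Cacnb2 and Cacnb4 were lower and Cacnb1 was higher. Cacnb4 (chromosome 2, 52428320 to 52676609), mutated in the epileptic lethargic mouse, had 4411, 5125 and 6588 normalized counts in wild-type and 2882, 4529 and 4991 in rNLS8 mice. All 10 rNLS8 mice were below the wild-type median, 3 of them under the wild-type range. It fell by 0.29 on the log2 scale (SE 0.0691, adjusted p = 0.00151), and the value without T61340 was -0.23 (adjusted p = 0.00168). Cacnb2, the main beta subunit of the heart, had 751, 895 and 1052 normalized counts in wild-type and 613, 776 and 888 in rNLS8 mice, again with all 10 below the wild-type median. It fell by 0.21 on the log2 scale (SE 0.0515, adjusted p = 0.00196).

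Cacnb1 (chromosome 11, 98001508 to 98023034), which also serves the channel of skeletal muscle, went the other way, with 2579, 2955 and 3395 normalized counts in wild-type and 2889, 3339 and 4449 in rNLS8 mice. In 4 of 10 rNLS8 mice it exceeded the wild-type range, the highest being T61340. The rise was 0.21 on the log2 scale (SE 0.058, adjusted p = 0.00525), and 0.16 without T61340 (adjusted p = 0.0121). Cacnb3, with the highest level per kilobase in the family (1936 ± 154 normalized counts per kb of exon in wild-type mice), had 5201, 5737 and 6577 normalized counts in wild-type and 4952, 5936 and 7442 in rNLS8 mice. Although 9 of 10 rNLS8 mice were over the wild-type median, 2 were over the wild-type range and 1 was under it. Cacnb3 had a log2 fold change of 0.10 (SE 0.0583, 95% interval -0.02 to 0.22, adjusted p = 0.178; 0.06 without T61340), which passed the threshold only in the fit scaled by library size alone (0.17, adjusted p = 0.0131) among the alternatives tried.

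All 7 tested gamma subunits differed, 5 lower and 2 higher, and this family held the largest change of all. Cacng7, Cacng8 and Cacng6 lie in a row on chromosome 7 (3332027 to 3368221, 3394042 to 3416266 and 3423588 to 3435667), and these neighbours went in different directions. Each also has a row for a further copy in the deposited table, which held 91.7%, 97.4% and 65.9% of the counts of the gene's own row, so that the counting may have split their reads and their levels are uncertain. The copy rows moved as the gene rows did (log2 fold changes of 0.33, -0.30 and -1.60).

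Cacng6, a close relative of the skeletal muscle gamma subunit, had 19.6, 32.4 and 41.5 normalized counts in wild-type and 4.66, 9.35 and 12.7 in rNLS8 mice, without overlap. At 5 to 40 counts per mouse the single values carry wide counting error. Cacng6 had a log2 fold change of -1.78 (SE 0.179, adjusted p = 1.86e-08), a level lower by 3.43-fold, with -1.62 in cohort A and -1.85 in cohort B. Cacng8, the TARP of the hippocampus and cortex, had 880, 1106 and 1305 normalized counts in wild-type and 720, 866 and 1058 in rNLS8 mice. It fell by 0.32 on the log2 scale (SE 0.0656, adjusted p = 0.000336), with 7 of 10 rNLS8 mice under the wild-type range.

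Cacng7, a TARP of the second type, had the highest level per kilobase in its family (1589 ± 272 normalized counts per kb of exon in wild-type mice) and rose. Its values were 2546, 3411 and 4653 normalized counts in wild-type and 3425, 4204 and 6150 in rNLS8 mice. All 10 rNLS8 mice were over the wild-type median, but only 2, both of cohort A, exceeded the wild-type range. Cacng7 rose by 0.32 on the log2 scale (SE 0.0785, adjusted p = 0.00158), and by 0.29 without T61340 (adjusted p = 0.00401). Cacng2, or stargazin, the founding TARP, rose by 0.16 on the log2 scale (adjusted p = 0.0357). That call was lost without T61340, which was far above the other rNLS8 mice at 2664 normalized counts (0.10, adjusted p = 0.0878). It was also lost in cohort B alone (0.08, adjusted p = 0.205), and without cohort in the model (adjusted p = 0.0787 in edgeR and 0.0829 in DESeq2).

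The other TARP genes were lower. Cacng4 had 577, 783 and 1061 normalized counts in wild-type and 492, 653 and 790 in rNLS8 mice, which overlapped. Its change on the log2 scale was -0.29 (SE 0.0933, adjusted p = 0.0151). With the striatal markers as a covariate, an alternative added after seeing the data, it was -0.14 (adjusted p = 0.045). Cacng5 had 171, 282 and 679 normalized counts in wild-type and 172, 258 and 331 in rNLS8 mice, all within the wild-type range. Its log2 fold change of -0.39 (SE 0.155, adjusted p = 0.043) was smallest without the highest wild-type mouse, T_69532, at -0.25 (adjusted p = 0.108). This mouse also had the highest level of the thalamic markers Prkcd (2476 normalized counts, against a wild-type median of 253), Tcf7l2 (503 against 108) and Lef1 (256 against 148). T_69532 was also the highest wild-type mouse for Cacng6, Cacna2d4, Cacna1c, Cacna1g, Cacna1s and Scn7a. The part of thalamic tissue in these values was not tested. Cacng3 fell by 0.20 on the log2 scale (adjusted p = 0.0405), and without the rNLS8 mouse T60303 the value was -0.15 (adjusted p = 0.0874). The calls of Cacng3, Cacng4 and Cacng5 were also lost with scaling by library size alone (adjusted p = 0.172, 0.0695 and 0.105), and that of Cacng5 without cohort in the model (0.0889 in edgeR and 0.0653 in DESeq2). Cacng3 without T61340 was at -0.27 (adjusted p = 0.00201).

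Of the genes of the sodium channel pores, Scn2a, Scn3a and Scn8a were lower in rNLS8 mice, and none of those tested was higher. Scn3a, Scn2a, Scn1a, Scn9a and Scn7a lie side by side on chromosome 2, between 65457118 and 66784910, and of these only Scn3a and Scn2a, at one end, passed the test. Scn2a (65620764 to 65767447), the channel of excitatory axons, had the highest level per kilobase in the family (706 ± 95.9 normalized counts per kb of exon in wild-type mice). Its values were 4895, 6403 and 7856 normalized counts in wild-type and 2779, 5428 and 5795 in rNLS8 mice, and all 10 rNLS8 mice were under the wild-type median. Scn2a had a log2 fold change of -0.39 (SE 0.0856, adjusted p = 0.000558), and -0.33 without T61340 (adjusted p = 0.000412).

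Scn3a (65457118 to 65567591), prominent before birth, had 644, 810 and 918 normalized counts in wild-type and 271, 633 and 845 in rNLS8 mice. The lowest value was again that of T61340, and 6 of 10 rNLS8 mice lay under the wild-type range. It fell by 0.35 on the log2 scale (SE 0.1, adjusted p = 0.00591), and the value without T61340 was -0.26 (adjusted p = 0.00195). Scn8a, the channel of nodes of Ranvier and axon initial segments, fell by 0.19 on the log2 scale (adjusted p = 0.00694), with 8 of 10 rNLS8 mice under the wild-type range. With scaling by library size alone this was -0.11 (adjusted p = 0.0834).

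Scn1a (66270781 to 66440837), the main sodium channel of parvalbumin interneurons and the gene of Dravet syndrome, did not pass the test. It had 2643, 3522 and 4305 normalized counts in wild-type and 2338, 3877 and 4218 in rNLS8 mice. The groups overlapped, with 7 of 10 rNLS8 mice over the wild-type median, while T61340 was under the wild-type range. The estimate was 0.09 on the log2 scale (SE 0.0691, 95% interval -0.05 to 0.24, adjusted p = 0.296), with scaling by library size alone 0.17 (adjusted p = 0.0477) without T61340 0.14 (adjusted p = 0.0671) and without T61342 0.04 (adjusted p = 0.666). Interneuron markers were lower in the same libraries, 4 of 5 passing the test (summed level 300 to 408 CPM in wild-type and 241 to 345 in rNLS8 mice). Scn7a, a sodium sensor rather than a voltage-gated pore, had a log2 fold change of 0.19 (-0.08 to 0.45, adjusted p = 0.245), which without T61340 was 0.27 (adjusted p = 0.0341). Scn9a, a channel of pain-sensing neurons, ranged from 12 to 124 counts per mouse and had a log2 fold change of 0.19 (-0.49 to 0.87, adjusted p = 0.665).

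The share of each alpha subunit in the family was also computed. When normalized counts were divided by exon length, Scn1a made up 22.8 ± 1.69% of the summed level of the 7 tested alpha subunits in wild-type mice (SD, n = 11) and 28.1 ± 1.27% in rNLS8 mice (SD, n = 10). The shares ran from 20.2% to 25.6% and from 26.5% to 30.5%, so that the groups did not overlap. Scn2a took 40.6 ± 1.73% and 35.5 ± 2.91%, and Scn8a 29.8 ± 1.92% and 30.1 ± 3.41%. These shares were looked at after the fold changes were known and are given as a description without a test. In the gamma family, the share of Cacng7 was 46.1 ± 4.22% in wild-type and 54.8 ± 4.98% in rNLS8 mice on the same scale, with overlap (37.7% to 53.1% and 47.6% to 66.3%). That share leaves out the copy rows of Cacng6, Cacng7 and Cacng8 and is uncertain for the reason given above.

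**Figure D4:**
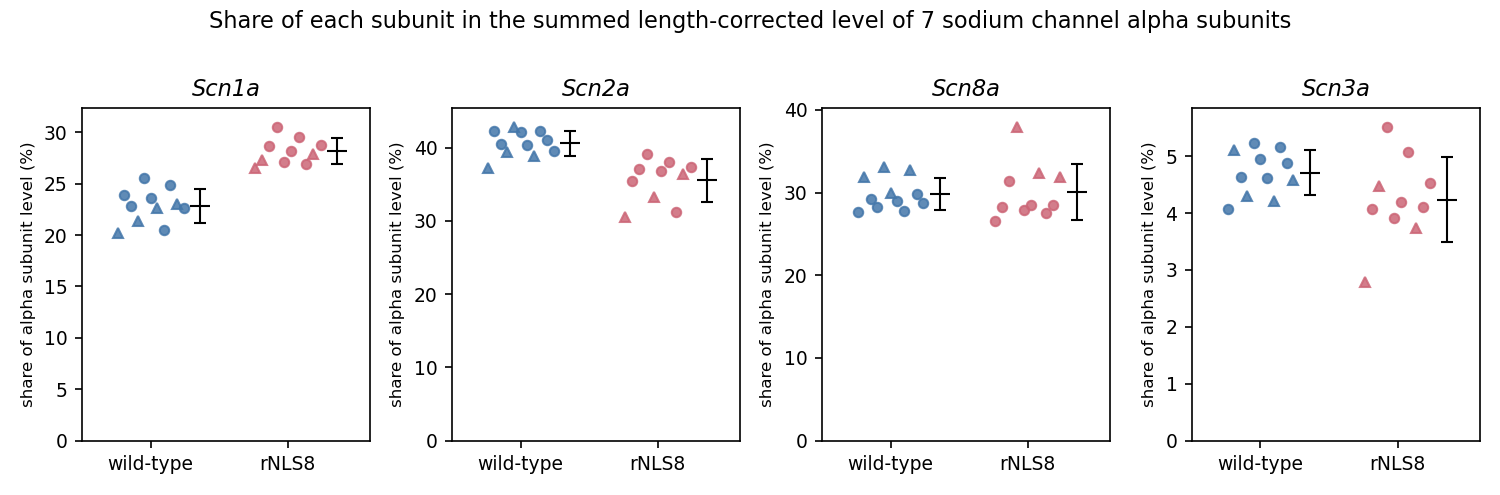
Share of 4 sodium channel alpha subunits in the summed length-corrected level of the 7 tested ones, in percent for each mouse (triangles, cohort A; circles, cohort B), with the mean and SD as a bar. The Scn1a shares of rNLS8 mice (26.5% to 30.5%) lie above all wild-type shares (20.2% to 25.6%), and those of Scn8a overlap.

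Of the auxiliary sodium channel beta subunits, Scn2b, Scn3b and Scn4b were lower in rNLS8 mice, also with scaling by library size alone. Scn4b (chromosome 9, 45138624 to 45154155), which supports resurgent sodium current and is abundant in striatal projection neurons, had 2088, 4627 and 8013 normalized counts in wild-type and 910, 2442 and 5547 in rNLS8 mice. The highest rNLS8 mouse, T_70267, was far above the rest, and 3 of 10 rNLS8 mice were under the wild-type range. The estimated log2 change was -1.13 (SE 0.234, adjusted p = 0.000353), a level lower by 2.18-fold, with -1.80 in cohort A and -0.82 in cohort B.

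Scn4b was high in mice whose striatal markers were high. The rNLS8 mouse T_70267 had the highest marker sum of its group (916 CPM), and the wild-type mouse T_69523, with the highest Scn4b level of all, had a sum of 1161. Of the 6 striatal markers, 2 were lower in rNLS8 mice. With the marker sum as a covariate, chosen after seeing the data, the log2 fold change of Scn4b was -0.76 (adjusted p = 2.74e-09). The part of striatal tissue in the Scn4b difference was not tested beyond this fit.

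**Figure D5:**
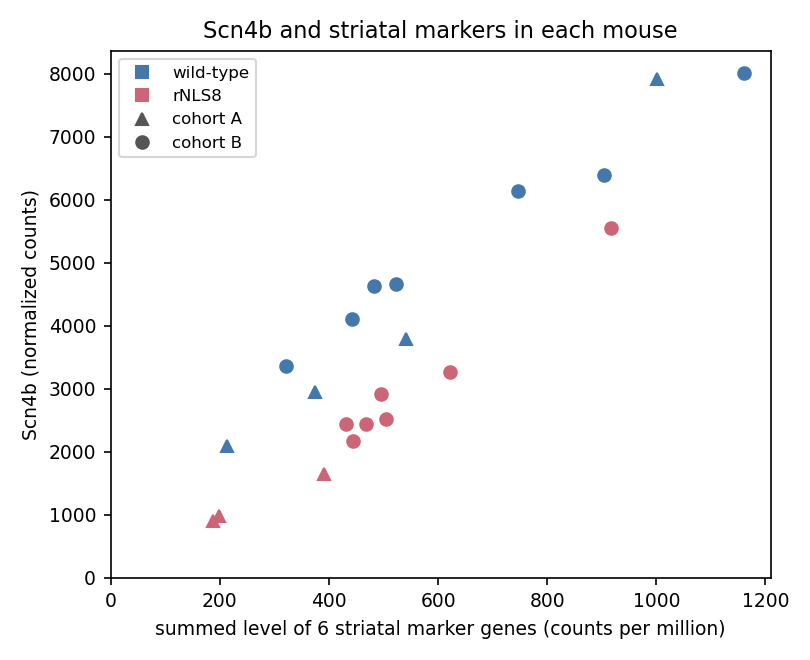
Normalized counts of Scn4b against the summed level of 6 striatal marker genes in CPM, 1 point per mouse. Mice with a higher sum have more Scn4b, up to 8013 counts at a sum of 1161 in wild-type and 5547 at 916 in rNLS8 mice.

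Scn2b, the neighbour of Scn4b on chromosome 9 (45117876 to 45130070) and a disulfide-linked partner of the pore, fell less, by 0.19 on the log2 scale (adjusted p = 0.00121), with all 10 rNLS8 mice under the wild-type median. Scn3b (chromosome 9, 40269216 to 40291618), a noncovalently bound partner, had 1909, 2172 and 2346 normalized counts in wild-type and 1405, 1802 and 2057 in rNLS8 mice. In 6 of 10 rNLS8 mice it was under the wild-type range. The log2 fold change was -0.27 (SE 0.0517, adjusted p = 0.000125).

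The library T61340 was the lowest of those labelled rNLS8 for 13 of the 35 tested subunits and the highest for 7, and T60303 was the lowest for 11. Without T61340, 23 subunits passed and the median log2 fold change was -0.20. Cacng2 and Cacng5 were among those that lost the call, and Scn7a gained one. Across the 35 subunits, the Spearman correlation of the log2 fold change with the length of the gene was -0.14 (-0.13 across 17099 genes), and without T61340 it was -0.03 (-0.07 across 17156 genes). These are descriptions across genes, which share the same libraries. Of the 25 calls, 21 were kept whichever mouse was left out, and those of Cacng2, Cacng3 and Cacng5 were lost in 7, 11 and 14 of 21 fits.

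Of 32 genes known to bind, anchor or regulate these channels, all tested, 17 passed the test (53.1%, against 44.7% of all genes). Of these, 12 were lower (37.5% of the 32, against 21.7% of all genes) and 5 were higher (15.6%, against 23%). The largest falls were in the presynaptic active zone proteins that hold calcium channels near vesicles, with log2 fold changes of -0.94 for Erc2 (SE 0.0536, adjusted p = 2.2e-12) and -0.89 for Rims1 (SE 0.0771, adjusted p = 1.71e-09), and for both the rNLS8 mice were all under the wild-type range. Of the 5 genes of this group, Rimbp2 was also lower (-0.19), while Rims2 (-0.07) and Bsn (-0.11) did not pass.

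Stac2, an adaptor of L-type channels, rose by 0.80 on the log2 scale (SE 0.0857, adjusted p = 5.51e-08), and all rNLS8 mice were over the wild-type range. Its gene lies close to Cacnb1 on chromosome 11 (98036623 to 98053462). Calm3, a gene of the calcium sensor calmodulin, rose by 0.29 on the log2 scale (adjusted p = 5.35e-05). The sodium channel partner Fgf13 fell by 0.54 (SE 0.0513, adjusted p = 7e-09), and Nrcam, a cell adhesion molecule of the node of Ranvier, by 0.38 (adjusted p = 2.64e-06). The main axonal anchor Ank3 had a log2 fold change of 0.14 (adjusted p = 0.0796), whereas Ank2 fell by 0.29 (adjusted p = 0.000551). In the sodium leak channel complex, a relative of these channels, Nalcn fell by 0.47 (adjusted p = 6.35e-05) and Unc80 by 0.52 (adjusted p = 8.65e-05), whereas Fam155a rose by 0.21 on the log2 scale (adjusted p = 0.000978) and Unc79, with a log2 fold change of -0.05, did not pass the test. Rrad, an inhibitor of calcium channels, rose by 0.37 on the log2 scale, close to the threshold (adjusted p = 0.0475).

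The 5 untested subunits were scarce. Cacna1f, the photoreceptor channel, had 59 counts over all 21 mice, and Cacng1, the skeletal muscle gamma subunit, had 58. Scn10a and Scn11a, both channels of sensory neurons, had 151 and 132, and Scn4a of skeletal muscle had 15. Cacna1f, Cacng1, Scn11a and Scn4a had a count of 0 in at least 1 mouse, which allows up to 3 counts at this depth and covers counting error only. All 5 were left out by the filter on low counts. In edgeR's fit without that filter, Scn10a had a log2 fold change of -0.92 (99 counts over the wild-type and 52 over the rNLS8 mice, adjusted p = 0.0237), and the adjusted p of the other 4 was between 0.312 and 0.868.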

How the data were processed

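Total RNA from neocortex by the labels (brain cortex in the methods, hippocampus in a legend of the study, RIN over 7) went to BGI for sequencing of 100 bp read pairs. The authors deposited raw whole-number counts for each gene symbol of the 11 wild-type and 10 rNLS8 mice. They aligned the reads to GRCm38 (mm10), and the submitters' processing notes list HISAT, HISAT2, Bowtie, Bowtie2 and RSEM. Versions, the role of each tool and the use of strand in counting are not given in the sources used here, so that reads of overlapping genes may be shared. Every count column was matched to a mouse by name (0 columns unused).

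The analysis used R 4.3.3 and edgeR 4.0.16. Genes passed the expression filter by genotype (minimum count 10, minimum total 15), TMM factors were computed, and the two-sided quasi-likelihood test was fitted with cohort and genotype as terms over 18248 genes, with Benjamini-Hochberg adjustment over all of them and a threshold of 0.05. All adjusted p-values are from this test, in the named cohort or alternative where one is given. SE was derived from the fold change and the F statistic, and 95% intervals used 18 degrees of freedom. For normalized counts, each count was scaled to the mean TMM-adjusted library total. Exon length was the union of exons in GENCODE M21, and positions and promoters came from RefSeq for GRCm38.p6. The p-values measure the spread between mice. DESeq2 1.42.0 was an alternative and the test the methods name, without a covariate. The edgeR fit, but not that of DESeq2, was run on simulated counts, and the outcome is not reported here.

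Full values were given for subunits past the threshold with an absolute log2 fold change of at least 0.2 and for the most abundant subunit per length of each family. Partner genes were named by the same limit, at most 10, largest first, with Ank2 and Calm3 level at 2 decimals in the last place, and others named beside them (Rimbp2, Rims2, Bsn, Ank3, Fam155a and Unc79) were chosen after their values were seen. The subunits, the partner list, the marker lists and the sequence motifs were chosen with earlier results of these data known. A few genes that enter the counts are not reported here.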

Additional observations from a re-analysis of the deposited data

Results flagged for a closer look

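In 5 of the 35 tested subunits, a single rNLS8 mouse lay far from the other 9, judged by its gap to the nearest mouse divided by the range of the group. For normally distributed values and independent genes, chance gives such a mouse in about 1 of 20 groups, or 1.75 of 35. The subunits share the same libraries, from both cohorts, so that the 5 cannot be read as an excess over this. In 3 of the 5 it was T61340, the library labelled rNLS8 whose Tardbp level was within the wild-type range. Its Cacna1c was low, at 934 normalized counts against 1289 in the next mouse (ratio 0.549), and so was its Scn3a, at 271 against 555 (0.494). Its Cacng2 was high, at 2664 against 2132 (0.517). The other mouse was T_70267, with Scn4b at 5547 against 3260 (0.493) and Cacna1h at 1543 against 1241 (0.533). T_70267 also had the highest sum of striatal markers among rNLS8 mice. The part of exon length or tissue taken in these values was not tested.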

How the results depend on the processing

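The numbers of subunits past the threshold, 25 in all, were within 1.5 times of the reported ones under most alternatives. Cohort A alone, with fewer mice, gave 7 subunits (1 higher, 6 lower) and 6 partner genes instead of 17. The 4 higher subunits became 8 with scaling by library size alone, and 2 in cohort B alone and in edgeR and DESeq2 without cohort. With 1 mouse left out, 21 to 25 subunits passed, 3 to 5 higher and 18 to 21 lower, with medians of -0.23 to -0.19 and 16 to 19 partner genes. The lowest total of subunits came without the rNLS8 mouse T_70252. Directions reversed only in subunits that had not passed the test. Cacna1a was 0.00 with library size alone and 0.08 in cohort A. Cacna1d was -0.03 in cohort B, -0.01 with the striatal covariate and -0.03 to 0.08 with 1 mouse left out (reversed in 4 of 21 fits). Cacna1s was -0.39, -0.04 and -0.06 to 0.23 in the same order (also 4 of 21). Scn9a was -0.56 in cohort A and -0.13 to 0.30 with 1 mouse left out, below 0 only without the rNLS8 mouse T_69531. The cause was not tested. Adding Xist, as sex is not labelled, left 22 subunits. The median of Xist was 4082 normalized counts in wild-type and 7.69 in rNLS8 mice. It ran from 1577 to 16051 in cohort A and from 0 to 6837 in cohort B. Sex may therefore be unbalanced between the genotypes and the cohorts, and its part was not tested beyond this fit. No analysis by litter was possible because the sample labels do not give the litter of a mouse, so that any likeness of littermates was not modelled. Depth limits Cacng6, Cacna1s, Scn9a and Cacna2d4, with as few as 5, 9, 12 and 21 counts in a mouse.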
